A study of Mus musculus with 21 samples.

Results

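Embryoid bodies grown for 3 days with ascorbic acid (vitamin C) were compared with embryoid bodies of the same day grown without it. The comparison uses 6 of the 21 arrays of the series, namely the 3 arrays titled as day 3 and ascorbic acid treated and the 3 titled as day 3 and non treated. Arrays with the same replicate number were taken as pairs. All 6 came from 1 line of mouse embryonic stem cells, CGR8. Cells were set up at 500 per 25 µL hanging drop, and the aggregates were moved to a shaker after day 2. The ascorbic acid groups grew in the medium labelled 20% IMDM with ascorbic acid at 100 µM, and the control groups in 20% IMDM alone. Biotinylated cRNA was made from 100 ng of total RNA and hybridised to Affymetrix arrays. The labels call the 3 samples of each group biological replicates. Per the series' design text, samples entered the study only where treated cultures later gave more beating aggregates than controls, so these arrays are a selected set.

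Embryoid bodies are aggregates in which pluripotent cells leave pluripotency and pass through a stage like the primitive streak, the structure of the embryo from which mesoderm and endoderm arise. Ascorbic acid keeps iron in its reduced state and serves in this way many dioxygenases, among them the collagen prolyl hydroxylases, the TET enzymes that oxidise methylated cytosine, the JmjC histone demethylases and the prolyl hydroxylases that mark HIF-alpha, the hypoxia-inducible factor, for destruction. HIF activates genes of glycolysis and other hypoxia responses.

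Values are given as log2 signal, on which a step of 1 equals a 2-fold change. Differences are given as ascorbic acid minus control, with the standard error of limma's paired fit (n = 3 pairs). A gene was called where its adjusted p, after Benjamini-Hochberg adjustment over 18193 genes, was under 0.05. Between 27.1% and 28.2% of probe sets on the day 3 arrays read under 5, and levels below 5 are treated here as dim and given no fold change. List members named without a call were, apart from the marker genes, chosen after their values were seen.

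The day 3 arrays resembled each other closely, with Pearson r over all genes of 0.991 to 0.994 among ascorbic acid arrays and 0.990 to 0.995 among control arrays. Replicate 3 of both arms stood apart from replicates 1 and 2. On the first principal component of all 21 arrays, which held 54.6% of the variance, replicate 3 lay at -18.93 with ascorbic acid and -18.35 without. The other day 3 arrays lay at -6.10 and -2.28 with ascorbic acid and at -2.84 and -2.19 without, and the day 2 arrays between -40.54 and -25.58. RNA integrity was read from control probe sets as 3′ signal less 5′ signal. For Actb this was 1.28, 1.00 and 1.04 on the ascorbic acid arrays and 1.03, 0.96 and 1.05 on the control arrays. For Gapdh it was 0.40, 0.12 and 0.16 with ascorbic acid and 0.16, 0.13 and 0.11 without, so replicate 1 with ascorbic acid was the highest for both. For Tfrc it was 1.12, 0.99 and 0.95 with ascorbic acid and 1.12, 1.05 and 1.5 without, where control replicate 3 was the highest. Its part in the results was not tested.

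At day 3, 36 of 18193 genes were called (0.198%), 17 higher with ascorbic acid (0.0934%) and 19 lower (0.104%). Glycolytic enzyme genes and the mesenchymal factor genes Twist1 and Mkx were among those that fell, and Pttg1, which encodes securin, had the smallest p-value among those that rose. Absolute differences of the called genes ran from 0.43 to 1.37, and the difference was at least 1 in 10 of the 36. Of the 36, 2 were dim in both groups and 5 in 1 group. All 36 had the same sign in all 3 pairs, and in 28 the 3 ascorbic acid arrays did not overlap the 3 control arrays. Over all genes, the groups did not overlap in 6.85% of cases (3.72% with ascorbic acid higher, 3.13% with it lower). The median difference over all genes was 0.0067. The calls rest on the pairing: limma without the pairs, fitted on all 21 arrays with day 0 among them, called 0 genes at day 3. At an unadjusted p under 0.05 it had 269 genes (1.48%), against 831 (4.57%) in the paired fit of 18 arrays. These fits thus differ in their arrays as well as in the pairing. With the day 3 arrays alone and no pairs, limma called 5 genes. Of the 36 genes, 8 were still called without replicate 1, 5 without replicate 2 and 13 without replicate 3, in fits with fewer arrays. The paired fit of the 6 day 3 arrays alone called 135 genes (0.742%), all 36 among them. That fit leaves only 2 residual degrees of freedom, against 6 in the paired fit of 18 arrays, so its calls lean more on the spread shared across genes. Pgk1, Pttg1, Wfdc2, Meioc and Mkx were called without each replicate in turn.

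**Figure D1:**
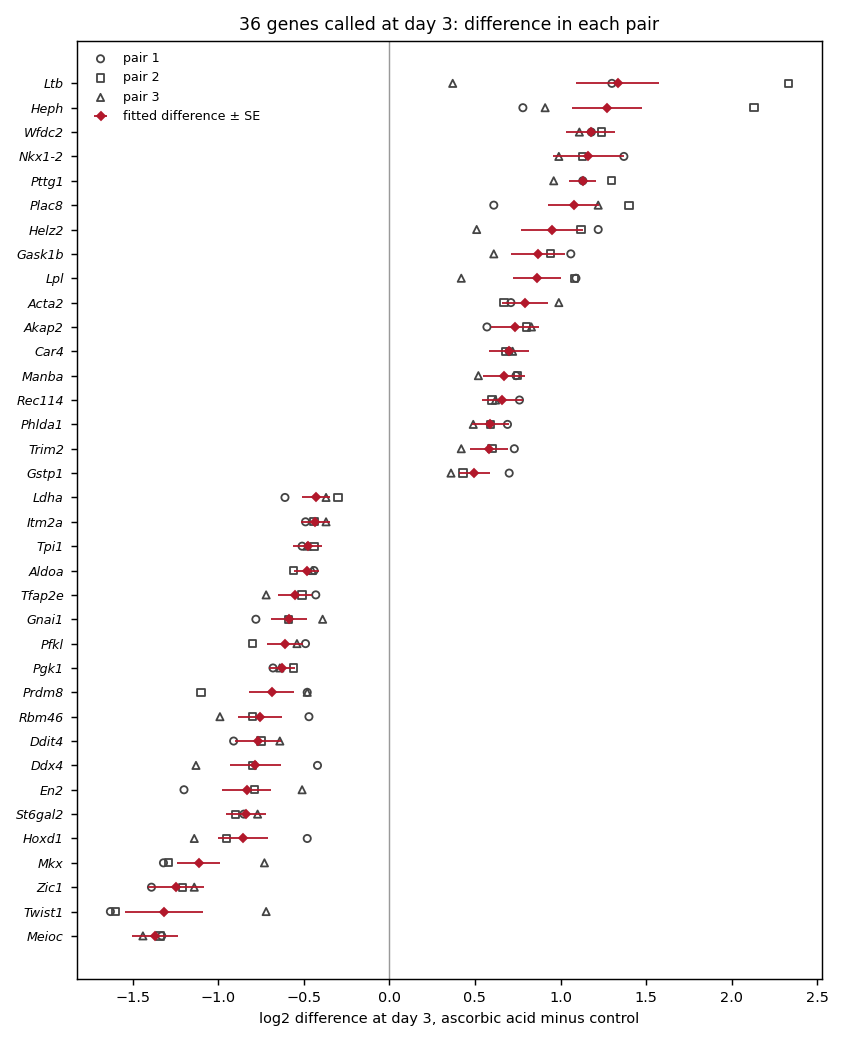
Log2 difference at day 3, ascorbic acid minus control (horizontal axis), for each of the 36 called genes. Open symbols are the differences in the 3 pairs, and red diamonds with bars are the fitted difference ± its standard error. No symbol of a called gene crosses 0. Pair 3 (triangles) has the smallest difference in 19 of the 36 genes.

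Glycolysis turns glucose into pyruvate, and lactate dehydrogenase then makes lactate. Of 13 measured glycolytic enzyme genes, 5 fell with ascorbic acid (Pgk1, Pfkl, Aldoa, Tpi1 and Ldha) and 0 rose, where 0.104% of all genes fell. The count of 5 was 0 without the pairs, 1 with the pair as a random block, 1 without any one of the replicates, and 7 in the paired fit of the day 3 arrays alone. In 10 of the 13 the difference was below 0, the median was -0.34, against 0.0067 over all genes, and in 7 of 13 all 3 ascorbic acid arrays lay below all 3 control arrays (3.13% of all genes). The same number, 7 of 13, were lower in all 3 pairs, where 12.9% of all genes were. Array means over the 13 genes ran from 10.02 to 10.13 with ascorbic acid and from 10.32 to 10.41 without it. In a bulk sample, fewer cells that express a gene and less RNA per cell cannot be told apart.

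The HIF-binding core ACGTG, searched on both strands as ACGTG or CACGT, occurred in the 300 bases around the start site (250 before and 50 after) of 9 of the 13 genes. It was found in 19.6% of 32851 RefSeq promoter windows and in at least 1 window of 21.8% of 27025 genes. The promoter stretches of the called genes Pgk1, Ldha and Aldoa that hold it are shown because these genes carry the glycolytic result, together with that of Ddit4, a HIF target described further on. Of the 5 called genes 3 held the motif, while the window of Pfkl and that of Tpi1 did not hold these letters. The uncalled genes Hk1, Hk2, Pfkm, Aldoc, Pgam1 and Pkm held it as well. Capitals mark the motif, and where both forms overlap they are merged into 1 run. Sequences are RefSeq's for GRCm38.p6, 5′ to 3′ on the strand of the gene. The stretch of Pgk1 is chrX:106186930-106186993 on the plus strand, that of Ldha chr7:46845639-46845794 on the plus strand, that of Aldoa chr7:126799356-126799400 on the minus strand and that of Ddit4 chr10:59951933-59951977 on the minus strand.
Pgk1: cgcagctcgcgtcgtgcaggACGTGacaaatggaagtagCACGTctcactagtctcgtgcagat
Ldha: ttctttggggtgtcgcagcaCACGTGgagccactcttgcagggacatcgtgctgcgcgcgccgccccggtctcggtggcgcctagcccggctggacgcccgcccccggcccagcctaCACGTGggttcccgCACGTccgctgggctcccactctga
Aldoa: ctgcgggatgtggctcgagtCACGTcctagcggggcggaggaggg
Ddit4: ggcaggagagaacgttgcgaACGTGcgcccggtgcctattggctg
A match is a description of the letters and not of binding.

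Pgk1 encodes phosphoglycerate kinase, the first enzyme of glycolysis to yield ATP. Its log2 signal was 12.44, 12.54 and 12.31 with ascorbic acid, against 13.12, 13.10 and 12.95 without. Every ascorbic acid array lay below every control array, and the difference was -0.63 ± 0.08 (1.54-fold lower; limma, adjusted p = 0.00144). All 3 probe sets of Pgk1 read nearly the same difference (-0.63, -0.62 and -0.60). Pfkl encodes the liver form of phosphofructokinase, which commits sugar to glycolysis. It stood at 9.35, 9.44 and 9.15 with ascorbic acid, against 9.84, 10.24 and 9.69 without, again with no overlap (-0.61 ± 0.10, limma adjusted p = 0.0232). The other probe sets of Pfkl read -0.18 and -0.11 and were not called, so the fall of Pfkl rests on 1 of its 3 probe sets.

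Aldoa encodes aldolase A, which splits fructose bisphosphate. Its signals were 12.09, 12.02 and 12.00 with ascorbic acid and 12.53, 12.58 and 12.45 without, a difference of -0.48 ± 0.07 (limma, adjusted p = 0.00828) with all treated arrays below all controls. The 5 probe sets of Aldoa read between -0.55 and -0.40. Tpi1, the gene of triosephosphate isomerase, which interconverts the products of aldolase, was at 11.87, 11.94 and 11.73 with ascorbic acid and at 12.38, 12.38 and 12.21 without (-0.48 ± 0.08, limma adjusted p = 0.0274), and its groups did not overlap either. Ldha, which encodes a lactate dehydrogenase subunit, was named after its value was seen. It read 12.63, 12.92 and 12.64 with ascorbic acid, against 13.24, 13.22 and 13.01 in controls (-0.43 ± 0.08, limma adjusted p = 0.0396). Several probe sets of Pgk1, Aldoa and Tpi1 are of types that can also bind related transcripts, so these values may include close copies.

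Among the glycolytic genes that were not called, Pkm (pyruvate kinase) stood at -0.34 ± 0.08 (limma, adjusted p = 0.109) and Pgam1 (phosphoglycerate mutase) at -0.30 ± 0.08 (adjusted p = 0.247), both without overlap of the groups. Both were called in the paired fit of the day 3 arrays alone (limma, adjusted p = 0.0151 and 0.0264). The hexokinase genes Hk1 and Hk2, which catalyse the first step, read 0.07 ± 0.14 and -0.02 ± 0.10, and the other phosphofructokinase genes Pfkm and Pfkp read 0.17 ± 0.11 and 0.10 ± 0.18. Gapdh was not analysed here, since its values come from control probe sets.

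**Figure D2:**
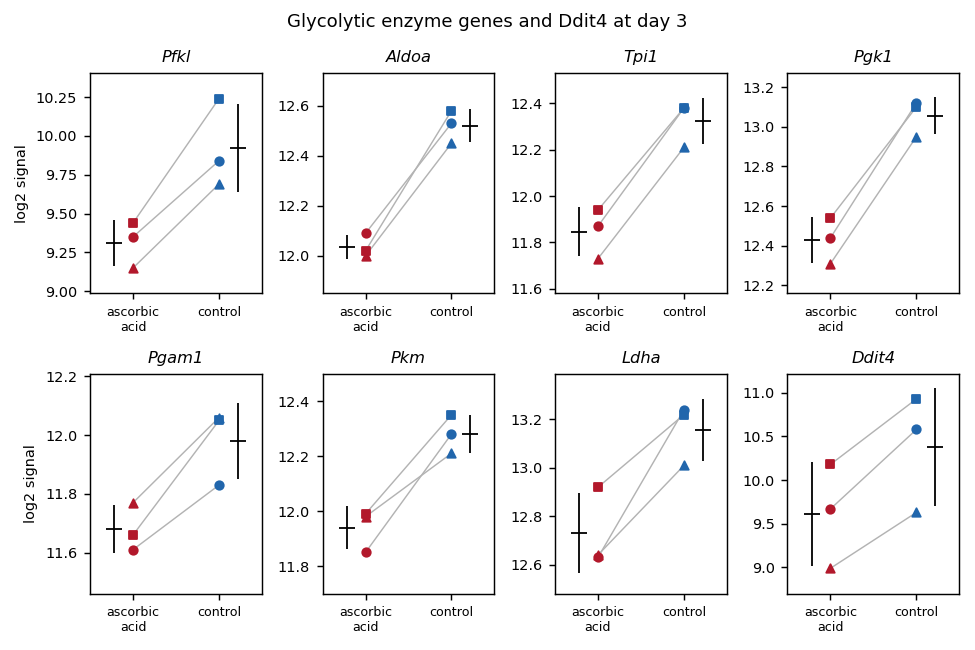
Log2 signal (vertical axis, a separate range for each panel) of 7 glycolytic enzyme genes and of Ddit4 on the day 3 ascorbic acid arrays (red, left) and control arrays (blue, right). Circles, squares and triangles are replicates 1, 2 and 3, grey lines join a pair, and black bars are the mean ± SD of 3 arrays. In all 8 panels each pair runs lower with ascorbic acid, and only the Ddit4 groups overlap.

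Outside glycolysis, 1 of 25 measured HIF target genes was called, where 0.198% of all genes were. Ddit4, a hypoxia- and stress-induced inhibitor of mTORC1 signalling, fell to 9.67, 10.18 and 8.99 with ascorbic acid, against 10.58, 10.93 and 9.63 without. The groups overlapped because replicate 3 was low in both arms, while each pair fell (-0.77 ± 0.13, limma adjusted p = 0.0246). The difference was below 0 in 19 of the 25 genes, the median was -0.10, and 7 were lower at an unadjusted p under 0.05 (1.87% of all genes were). Bnip3, a mitophagy receptor, read 9.41, 10.16 and 9.22 with ascorbic acid and 10.35, 10.25 and 10.35 without, a difference of -0.72 ± 0.16 that did not pass (adjusted p = 0.103). Fam162a read -0.48 ± 0.10 (adjusted p = 0.0515), the histone demethylase gene Kdm3a -0.48 ± 0.12 (adjusted p = 0.211) and P4ha1, a collagen prolyl hydroxylase subunit, -0.62 ± 0.16 (adjusted p = 0.219). These genes had no overlap between groups and were not called, while the day 3 arrays alone gave Fam162a and Kdm3a an adjusted p of 0.0042 and 0.0145 in limma's paired fit. The glucose transporter genes Slc2a1 and Slc2a3 read -0.10 ± 0.13 and 0.00 ± 0.07, Vegfa -0.16 ± 0.18, and Egln3, the gene of a HIF prolyl hydroxylase, -0.29 ± 0.15 (adjusted p = 0.996).

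Among the developmental regulators that fell, Twist1 and Mkx belong to the list of fibroblast and mesenchyme genes. Twist1 encodes a basic helix-loop-helix factor of mesenchyme. Its signal was 5.74, 5.49 and 5.74 with ascorbic acid, against 7.37, 7.09 and 6.46 without. All treated arrays were lower than all controls, and pair 3 had the smallest gap (-1.32 ± 0.23, 2.49-fold lower; limma, adjusted p = 0.0246). The control means of Twist1 were 5.90, 5.95, 6.97 and 9.53 at days 0, 2, 3 and 5, and the treated day 3 mean of 5.66 was nearer to those of days 0 and 2. Mkx encodes Mohawk, a homeobox factor known from tendon development. It stood at 6.34, 6.45 and 6.25 with ascorbic acid and at 7.66, 7.74 and 6.98 in controls, again without overlap (-1.11 ± 0.13, 2.16-fold lower; limma, adjusted p = 0.000629). Its control level was highest at day 3 among the days, at 7.46 against 5.03, 6.29 and 5.78 at days 0, 2 and 5.

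The same list held 1 gene that rose, Acta2, which encodes smooth muscle actin. Acta2 read 7.92, 7.81 and 7.64 with ascorbic acid and 7.21, 7.14 and 6.65 without (0.79 ± 0.13, limma adjusted p = 0.0232), with no overlap. Both other Acta2 probe sets were dim and read 0.05 and 0.02. Tagln, another smooth muscle cytoskeleton gene, read 0.64 ± 0.15 and was not called (adjusted p = 0.170; 0.0291 with the day 3 arrays alone). Twist1, Mkx and Acta2 were the 3 called genes of the 16 in the list (0.198% of all genes were called), and the other 13 were not called. Over all 16 genes, 11 were above 0 and 5 below, and the median was 0.06.

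Other transcription factor genes that fell had low signals, and they are gathered here from the called genes. Zic1, a zinc finger factor of neural and paraxial tissue, read 3.97, 3.88 and 4.17 with ascorbic acid, against 5.36, 5.09 and 5.31 in controls. The treated arrays were dim and lay below all controls (-1.25 ± 0.17, limma adjusted p = 0.00301). Zic1 was the only called gene of 17 neuroectoderm genes, where 0.198% of all genes were called. Of the 17, 9 were above 0, and the median was 0.02. En2, a homeobox gene of the midbrain, read 4.76, 4.77 and 5.48 with ascorbic acid and 5.96, 5.56 and 5.99 without, which did not overlap (-0.83 ± 0.14, limma adjusted p = 0.0246). Hoxd1, an anterior Hox gene, was dim in both groups, at 4.09, 4.13 and 3.72 with ascorbic acid and 4.57, 5.08 and 4.86 without (-0.86 ± 0.14, adjusted p = 0.0232). Its groups were nonetheless apart. Prdm8, which encodes a PR domain factor of neurons, read 5.13, 4.80 and 4.65 with ascorbic acid and 5.61, 5.90 and 5.13 without (-0.69 ± 0.13, limma adjusted p = 0.0382), so that the highest treated array equalled the lowest control. Tfap2e, an AP-2 factor gene, read 4.68, 4.79 and 4.69 with ascorbic acid and 5.11, 5.30 and 5.41 without, apart and dim on the treated arrays (-0.55 ± 0.10, limma adjusted p = 0.0274).

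Of 27 measured germline and meiotic genes 2 fell, Meioc and Ddx4, where 0.104% of all genes fell. Of the 27, 14 were above 0 and 13 below, and the median was 0.02. Meioc, needed for meiotic prophase in mouse germ cells, was at 4.92, 4.73 and 6.56 with ascorbic acid, against 6.25, 6.07 and 8.00 without. Replicate 3 was high in both arms, so the groups overlapped, while the pairs differed by -1.33, -1.34 and -1.44 (-1.37 ± 0.14, 2.58-fold lower; limma, adjusted p = 0.000161). Ddx4, the Vasa RNA helicase of germ cells, read 6.78, 6.96 and 7.41 with ascorbic acid and 7.20, 7.76 and 8.54 in controls (-0.78 ± 0.15, limma adjusted p = 0.0382), also with overlap. Outside that list and picked from the called genes, Rbm46, an RNA-binding factor required for meiosis in mice, fell to a dim 4.29, 4.28 and 4.47 with ascorbic acid, against 4.76, 5.08 and 5.46 without (-0.75 ± 0.13, limma adjusted p = 0.0232). Rec114, which takes part in making the DNA breaks of meiosis, rose to 6.83, 6.77 and 7.07 with ascorbic acid, against 6.07, 6.17 and 6.45 without (0.66 ± 0.12, limma adjusted p = 0.0274).

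The remaining falls were of genes with mixed roles. Gnai1, an inhibitory G protein subunit, stood at 8.78, 9.09 and 8.85 with ascorbic acid and at 9.56, 9.68 and 9.24 without, with no overlap (-0.59 ± 0.10, limma adjusted p = 0.0274), and its other probe sets read -0.58 and -0.39. Itm2a, a membrane protein gene named after its value was seen, read 9.70, 9.81 and 10.32 with ascorbic acid and 10.19, 10.25 and 10.69 without. Replicate 3 was the highest in both arms, and the groups overlapped (-0.43 ± 0.08, limma adjusted p = 0.0425). St6gal2, a sialyltransferase gene, was dim in both groups, at 4.07, 3.87 and 4.47 with ascorbic acid and 4.92, 4.77 and 5.24 without (-0.84 ± 0.12, limma adjusted p = 0.0042).

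Securin, the product of Pttg1, holds separase inactive until sister chromatids part. Pttg1 read 11.96, 12.15 and 11.77 with ascorbic acid, against 10.83, 10.85 and 10.81 in controls. The control arrays were nearly equal, and every treated array was higher (1.13 ± 0.08, 2.19-fold; limma, adjusted p = 1.37e-06). The other Pttg1 probe sets read 1.37 and 0.44. Of 25 cell cycle genes, Pttg1 was the only one called (0.198% of all genes were), and the list's median was 0.01. Bub1, a spindle checkpoint kinase gene, read -0.17 ± 0.08 (adjusted p = 0.996).

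Wfdc2, which encodes a secreted protein with WAP domains, read 8.53, 8.42 and 8.24 with ascorbic acid and 7.35, 7.18 and 7.13 without. The groups were well apart (1.18 ± 0.14, 2.26-fold; limma, adjusted p = 0.00122). Plac8, a gene first described in placenta, stood at 8.09, 9.26 and 9.11 with ascorbic acid, against 7.48, 7.86 and 7.89 in controls, with no overlap but a low treated replicate 1 (1.08 ± 0.15, limma adjusted p = 0.0042). Nkx1-2, a homeobox gene of the caudal epiblast, read 7.43, 7.25 and 7.34 with ascorbic acid and 6.06, 6.12 and 6.35 without (1.16 ± 0.21, limma adjusted p = 0.0274). Its other probe sets read 0.02 and 0.14, so this rise rests on 1 of 3 probe sets. Ltb, the gene of lymphotoxin beta, showed the largest fitted rise among the 36 genes and a wide spread. It read 7.43, 8.67 and 5.65 with ascorbic acid and 6.13, 6.34 and 5.28 without, so that the groups overlapped (1.33 ± 0.24, limma adjusted p = 0.0274).

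**Figure D3:**
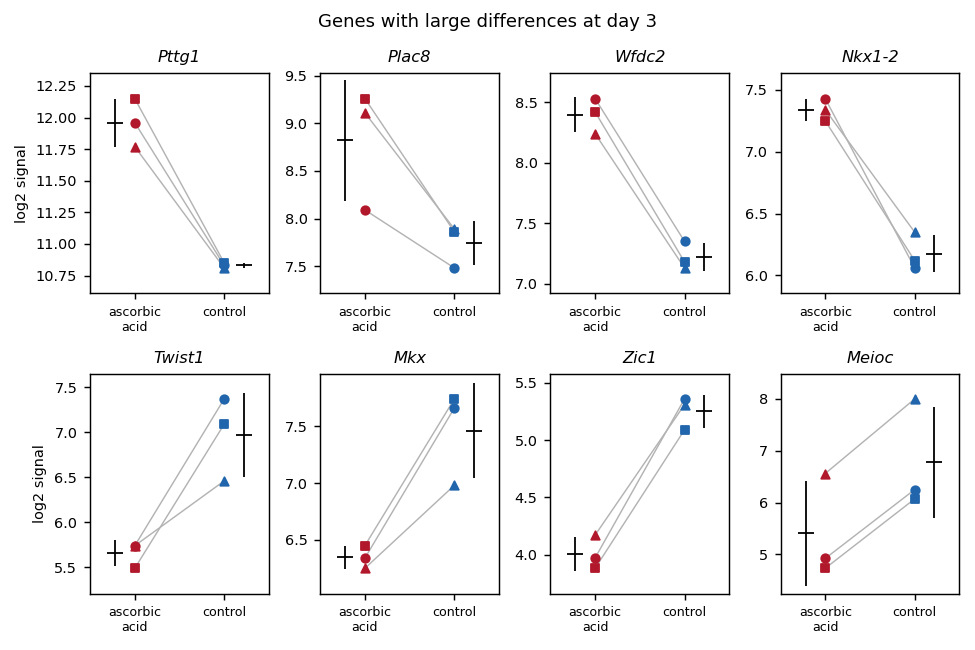
Log2 signal (vertical axis, a separate range for each panel) of 8 called genes on the day 3 ascorbic acid arrays (red, left) and control arrays (blue, right). Symbols are replicates 1 (circle), 2 (square) and 3 (triangle), lines join a pair, and bars are the mean ± SD of 3 arrays. The upper 4 genes are higher with ascorbic acid and the lower 4 are lower, and only the Meioc groups overlap.

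Several enzyme and transporter genes rose. Lpl, which encodes lipoprotein lipase, read 8.48, 8.49 and 8.63 with ascorbic acid and 7.39, 7.41 and 8.21 in controls, without overlap (0.86 ± 0.14, limma adjusted p = 0.0174). Car4, a membrane-bound carbonic anhydrase gene, read 9.79, 10.34 and 9.29 with ascorbic acid and 9.09, 9.66 and 8.57 without. Its groups overlapped, while its pairs differed by 0.70, 0.68 and 0.72 (0.70 ± 0.12, limma adjusted p = 0.0232), and its other probe set read 0.87. Heph, the gene of hephaestin, a copper ferroxidase of iron export, was at 5.04, 6.40 and 4.70 with ascorbic acid, against dim controls at 4.26, 4.27 and 3.79 (1.27 ± 0.20, limma adjusted p = 0.0174). Replicate 2 stood out among the treated arrays of Heph. Manba, a lysosomal mannosidase gene, read 6.92, 6.82 and 6.52 with ascorbic acid and 6.18, 6.07 and 6.0 without, all treated arrays above all controls (0.67 ± 0.12, limma adjusted p = 0.0274).

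Gstp1, a glutathione transferase gene, read 11.27, 11.40 and 11.18 with ascorbic acid and 10.57, 10.97 and 10.82 without, again apart (0.50 ± 0.09, limma adjusted p = 0.0306). It was the only call among 21 glutathione transferase genes (median 0.04), where 0.198% of all genes were called. Among 22 genes of the oxidative stress response 0 were called by limma, with 3 higher at an unadjusted p under 0.05. The metallothionein genes Mt1 and Mt2 read 0.58 ± 0.17 (adjusted p = 0.428) and 0.50 ± 0.11 (adjusted p = 0.114) there (limma, 0.0291 for each with the day 3 arrays alone), and Nqo1, a quinone reductase gene, 0.22 ± 0.12 (adjusted p = 0.996).

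Helz2, a helicase gene, was the only call among 16 interferon-stimulated genes (median -0.08), where 0.198% of all genes were called. It read 6.55, 6.71 and 5.99 with ascorbic acid and 5.33, 5.59 and 5.48 without (0.95 ± 0.18, limma adjusted p = 0.0376). The groups of Helz2 were apart, with replicate 3 the lowest treated array. Ifitm1 of the same list read -0.53 and was not called, but it was called lower in the paired fit of the day 3 arrays alone (limma, adjusted p = 0.00314). Gask1b, which encodes a Golgi-associated protein, read 6.04, 6.70 and 7.0 with ascorbic acid and 4.98, 5.76 and 6.39 without, with overlap (0.87 ± 0.16, limma adjusted p = 0.0286). Akap2, a kinase anchoring protein gene, read 6.55, 7.22 and 6.43 with ascorbic acid and 5.98, 6.42 and 5.60 without, only just apart (0.73 ± 0.14, limma adjusted p = 0.0376). Its other probe set, with a day 3 mean of 6.41 against 6.37, read 0.27 and was not called.

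Phlda1, a pleckstrin homology-like domain gene, read 7.45, 7.58 and 7.08 with ascorbic acid and 6.76, 6.99 and 6.59 without, also apart (0.59 ± 0.11, limma adjusted p = 0.0314). Trim2, a ubiquitin ligase gene named after its value was seen, read 6.97, 7.03 and 7.25 with ascorbic acid and 6.24, 6.43 and 6.83 without, again apart (0.58 ± 0.11, limma adjusted p = 0.0407). Of all other probe sets of the called genes, 30 of 31 had the sign of the one used, 22 of them at an unadjusted p under 0.05. The exception in sign was a dim Trim2 probe set at -0.04.

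Cholesterol synthesis genes stood higher together without any of them being called. Of 18 measured genes, 18 had a difference above 0 (0.08 to 0.56), the median was 0.30, and 15 were higher in all 3 pairs, where 15.5% of all genes were. Limma called 0 of the 18 by their brightest probe sets, and 12 were higher at an unadjusted p under 0.05 (2.69% of all genes were). In the paired fit of the day 3 arrays alone, 5 of the 18 were called higher (Sqle, Fdft1, Hmgcs1, Nsdhl and Dhcr7), where 0.742% of all genes were called. Hmgcs1, which makes the HMG-CoA used by the pathway's rate-limiting enzyme, read 12.39, 12.34 and 12.38 with ascorbic acid and 12.09, 12.00 and 12.08 without. The groups were apart, and the difference of 0.31 ± 0.06 did not pass (adjusted p = 0.0617). Lss, the gene of lanosterol synthase, read 0.56 ± 0.13 (adjusted p = 0.175), while its other probe sets read 0.83 ± 0.14 and -0.02 ± 0.13. With all probe sets tested singly, the Lss probe set at 0.83 was called higher (limma, adjusted p = 0.0241). Nsdhl (0.36 ± 0.08, adjusted p = 0.149) and Dhcr7 (0.36 ± 0.09, adjusted p = 0.231), enzymes of the late steps, had no overlap between groups either.

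In the paired fit of days 2, 3 and 5 together, the genes that mark the stage of the aggregates were not called at day 3. Limma called 0 of 25 streak and nascent mesoderm genes, with 1 higher and 4 lower at an unadjusted p under 0.05 (2.69% and 1.87% of all genes were), 18 below 0 and a median of -0.16. Eomes, a T-box factor of the streak, read 12.27, 12.20 and 10.78 with ascorbic acid and 12.49, 12.36 and 10.85 without, far above its day 0 and day 2 control means of 6.72 and 7.73. Replicate 3 was the lowest in each arm, and the difference was -0.15 ± 0.14. Mixl1, another streak factor gene, read 10.36, 10.84 and 7.04 with ascorbic acid and 10.93, 10.86 and 7.21 without, so that replicate 3 of both arms was near the day 2 control mean of 6.76. The organiser gene Gsc read 7.70, 8.19 and 4.86 with ascorbic acid and 8.59, 8.75 and 5.22 without (-0.60 ± 0.12, adjusted p = 0.0699), lower in each pair. Sp5, a target of Wnt signalling, read -0.50 ± 0.12 (adjusted p = 0.183). Gsc and Sp5 were called in the paired fit of the day 3 arrays alone (limma, adjusted p = 0.0298 and 0.0157). Foxa2, a factor of endoderm and the anterior streak, read 0.15 ± 0.12, and Mesp1, an early mesoderm factor, 0.12 ± 0.20.

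Cardiac and pluripotency genes likewise gave no call at day 3 in the paired fit of all days. Limma called 0 of 19 cardiac progenitor genes (0 higher and 1 lower at an unadjusted p under 0.05) and 0 of 22 cardiomyocyte genes (1 higher, 0 lower). Myh6, the gene of the atrial myosin heavy chain, was that 1 gene. It read 5.86, 6.28 and 6.64 with ascorbic acid and 5.02, 4.90 and 6.25 without, higher in each pair with overlap between groups (0.87 ± 0.24, adjusted p = 0.328). Myh6 was called in the paired fit of the day 3 arrays alone (limma, adjusted p = 0.0298), and its other probe set read 0.08. Its level was low at every stage, with a day 2 control mean of 6.33 above the day 3 one of 5.39. Nkx2-5, an early cardiac factor, read 0.05 ± 0.12 and Tnnt2, cardiac troponin T, -0.19 ± 0.11. At days 0, 2, 3 and 5 the control means were 7.64, 7.78, 7.37 and 7.56 for Nkx2-5. For Tnnt2 they were 5.60, 5.62, 5.59 and 5.59. Neither probe set thus rose above its stem cell level by day 5, which limits what the missing calls say. Kdr, a receptor of VEGF on early mesoderm, read 8.19, 7.94 and 7.80 with ascorbic acid and 7.76, 7.59 and 7.72 without, apart but not called (0.29 ± 0.12, adjusted p = 0.966).

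Pou5f1, the core pluripotency factor, stood at 11.44, 11.46 and 11.53 with ascorbic acid and 11.69, 11.68 and 11.58 without, apart but not called (-0.17 ± 0.13, adjusted p = 0.996). Nanog read -0.05 ± 0.12. Among 14 core pluripotency genes 0 were called (0 higher and 1 lower at an unadjusted p under 0.05; median -0.07), and likewise 0 of 17 naive genes (0 and 0; median -0.04) and 0 of 14 primed epiblast genes (3 higher, 0 lower; median -0.01). Of the 14 core genes, 12 were below 0 and 2 above. Tdgf1 of the core list read -0.29 and was called in the paired fit of the day 3 arrays alone (limma, adjusted p = 0.0381). Dnmt3a, a de novo DNA methyltransferase gene of the primed list, read 0.46 ± 0.10 (adjusted p = 0.0833; 0.0126 in the paired fit of the day 3 arrays alone).

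The enzymes that use ascorbic acid, and those that handle it, showed no called change of their own transcripts at day 3 in the paired fit of all days. Kdm3a and P4ha1, which read below 0, are counted with the HIF targets above and not in the lists that follow. Of these, Kdm3a was called in the paired fit of the day 3 arrays alone (-0.48, limma adjusted p = 0.0145). Of 26 chromatin dioxygenase genes 0 were called (0 higher and 1 lower at an unadjusted p under 0.05; median 0.00), and Tet1 read 9.09, 8.85 and 9.47 with ascorbic acid and 8.91, 8.99 and 9.48 without. Of 18 genes of collagen hydroxylation and crosslinking 0 were called (0 higher, 1 lower; median 0.10), and of 27 collagens and matrix genes 0 (2 higher, 2 lower; median -0.02). Col1a1, the gene of the main fibrillar collagen chain, read 0.07 ± 0.16. The 14 genes of vitamin C transport and recycling had 0 calls (0 higher, 0 lower; median 0.02), and the transporter gene Slc23a2 read 0.05 ± 0.13.

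The other lineage lists gave no call at day 3 in the paired fit of all days. Of 21 blood and endothelium genes 0 were called (0 higher, 0 lower; median 0.02), of 13 definitive endoderm genes 0 (1 higher, 2 lower; median 0.10), of 20 extraembryonic endoderm genes 0 (1 higher, 1 lower; median -0.02) and of 13 trophoblast genes 0 (1 higher, 2 lower; median -0.02). In all, 8 of 33 gene lists held a called gene, 15 of 618 distinct list genes were called (0.198% of all genes were, and the lists were chosen with results known), and 21 of the 36 called genes were in no list. The 25 lists without a call had medians from -0.16 to 0.30.

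**Figure D4:**
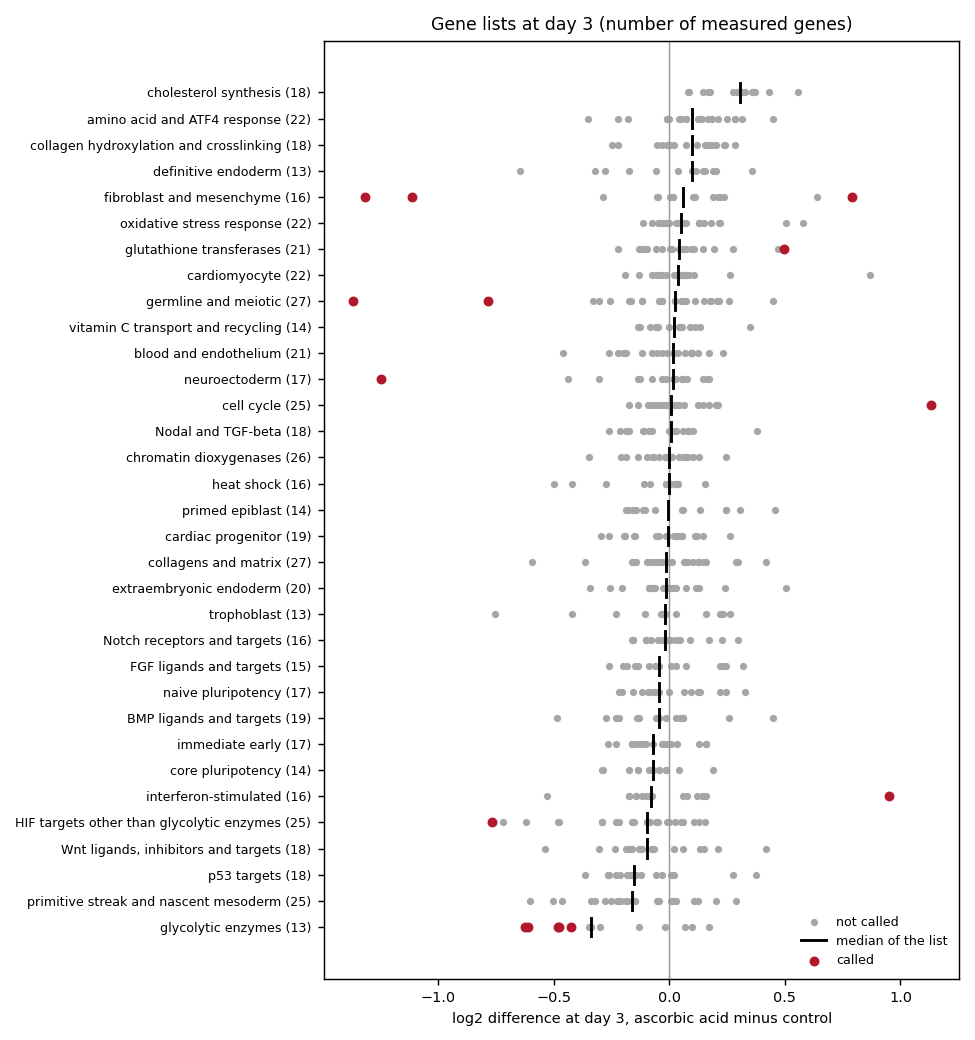
Log2 difference at day 3, ascorbic acid minus control (horizontal axis), of every measured member of 33 gene lists, 1 list a line with its number of measured genes. Grey points were not called, red points were called, and black ticks are list medians. The glycolytic list holds 5 called genes and the lowest median (-0.34), and the cholesterol list has the highest median (0.30) with no called gene.

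The day 3 differences were then set beside those of days 2 and 5, which share no array with day 3 but share its estimate of residual spread in the fit, so that calls on different days are not fully independent. The differences over all genes were smallest at day 3, with an SD of 0.13, against 0.20 at day 2 and 0.16 at day 5. Limma's paired fit called 481 genes at day 2 (2.64%) and 174 at day 5 (0.956%). Across genes, which are not independent replicates, the day 3 difference had a Pearson r of 0.23 with that of day 2 and 0.18 with that of day 5.

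At day 2, 35 of the 36 day 3 genes had the same sign (54.4% of all genes did) and 23 were also called in the same direction. Ltb was the exception, at -0.06. At day 5, 26 of the 36 had the same sign (53.9% of all genes), made up of 15 of the 17 higher and 11 of the 19 lower genes, and 11 were called. Called in the same direction on all 3 days were 6 genes, while 8 were called at day 3 and on neither other day, which by itself does not show that their effects differed between days. Pttg1 read 1.23, 1.13 and 1.36 at days 2, 3 and 5, and Acta2 0.66, 0.79 and 0.74. Mkx read -1.11, -1.11 and -0.92, and Gstp1 0.73, 0.50 and 0.47. Twist1 read -0.63, -1.32 and -0.78. It was called at day 3 and not on the other days, but its difference between days was not called (limma, adjusted p = 0.584 against day 2 and 0.997 against day 5). Nkx1-2 and Ltb were near 0 on both other days, at 0.11 and 0.05 for Nkx1-2 and -0.06 and 0.15 for Ltb, but the difference between days was not called for either gene (limma, adjusted p of 0.265 to 0.357).

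Of the 13 glycolytic genes, 2 had an effect at day 3 that differed from that at day 5 by the test of the difference, and 0 differed from day 2. Over all genes, 0.11% differed from day 5 and 0.0055% from day 2. The 5 glycolytic genes called at day 3 were also called at day 2 (2.64% of all genes were), with differences of -0.93 to -0.33. They read 0.05 to 0.16 at day 5. The change of effect between days 3 and 5 was called for Pgk1 (-0.68 ± 0.11, limma adjusted p = 0.0137) and Aldoa (-0.64 ± 0.10, limma adjusted p = 0.0137) and not for Tpi1 (-0.62, adjusted p = 0.0595), Pfkl (-0.72, adjusted p = 0.0752) or Ldha (-0.56, adjusted p = 0.0764). Between days 3 and 2 it was not called for any of these 5 genes.

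**Figure D5:**
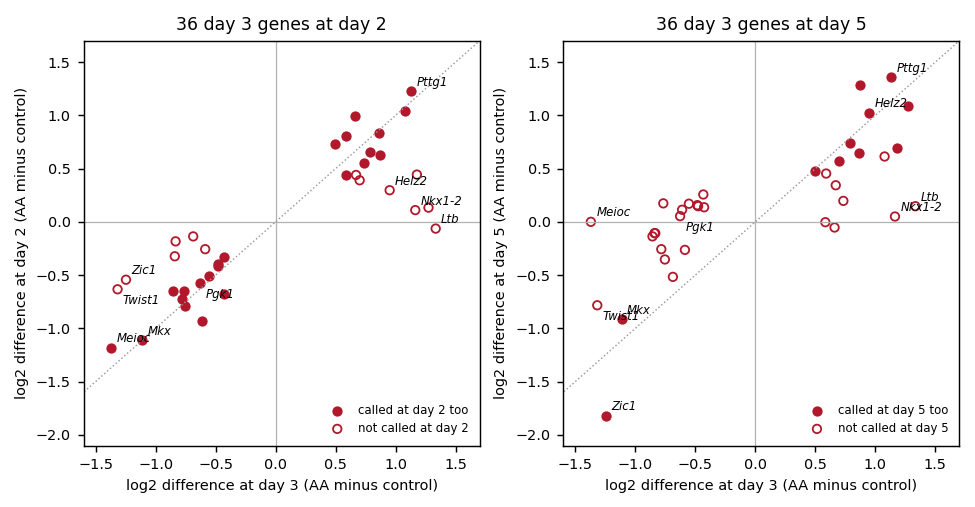
Log2 difference at day 3 (horizontal axis) against that at day 2 (left) and day 5 (right), ascorbic acid (AA) minus control, for the 36 genes called at day 3. Filled points were also called on the other day, open points were not, and the dotted line marks equal differences. At day 2, 35 points keep their sign, and at day 5 the glycolytic genes and Meioc lie at or just above 0.

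Tested directly over all genes, the effect of ascorbic acid differed between days 3 and 2 for 1 gene (0.0055%) and between days 3 and 5 for 20 genes (0.11%), all 20 of them lower at day 3. Meioc, among these 20, read -1.37 ± 0.14 at day 3 and 0.00 ± 0.14 at day 5, where both groups were dim (3.28 and 3.28). In the list of blood and endothelium genes were 4 of the 20 (Hbb-bh1, Tal1, Lmo2 and Tek). Tal1 is a factor required for blood formation. Tal1 read 5.51, 5.50 and 5.32 with ascorbic acid and 5.41, 5.49 and 5.66 without at day 3 (-0.08 ± 0.14). At day 5 its difference was 1.63 (limma, adjusted p = 9.36e-06).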

How the data were processed

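Per the submitters' processing notes, the authors made the deposited values with RMA, a method of background correction, quantile normalisation and probe summary. The deposited table holds log2 signals of 45101 probe sets on 21 arrays (2.51 to 14.51, array medians 6.05 to 6.19). No RMA version was given in the sources used here. Arrays give no read depth, and their number limits the precision.

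Platform annotation gave 1 symbol to 34945 probe sets, several to 932 and none to 9211, control probe sets aside. Of those with 1 symbol, 34741 matched the RefSeq table. Each of 18193 genes was read by its brightest probe set over all arrays. Genes were tested with limma 3.58.1 under R 4.3.3 (lmFit, then eBayes with a trend on intensity, two-sided) on 18 arrays, with 9 pair blocks (day by replicate number) and 1 treatment term for each of days 2, 3 and 5. This fit has 6 residual and 10.6 prior degrees of freedom. The fit was tested on simulated data with a pair effect built in, which cannot show whether the replicate numbers mark pairs. The numbers were taken as pairs by the choice of samples. Over all genes, deviations from the group means correlated with r of 0.495, 0.459 and 0.679 between day 3 arrays of the same number, and with -0.509 to 0.088 between other numbers. Deviations within a group cancel out, so the values between other numbers follow in part from those of the same number. What a number marks is not in the labels.

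The genes named were the 15 largest changes in each direction among called genes with 1 sign in all pairs, up to 4 called members of each list, 26 marker genes whatever their test, and the 5 with the smallest p for each difference between days. Clone names were left out. Members, the 33 gene lists and alternatives were chosen with earlier results of these data known. T (Tbxt) was not analysed here. Alternatives changed the pairing, arrays, normalisation, filter on dim genes, variance model, probe sets and replicates.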

Additional observations from a re-analysis of the deposited data

Results flagged for a closer look

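The effect of ascorbic acid (log2, ascorbic acid minus control) at day 3 differed from that on another day for 21 tests in limma's paired fit, after Benjamini-Hochberg adjustment. Against day 2 this was 1 gene, Hormad1, a gene of meiotic chromosome axes, with an effect 1.54 lower at day 3 (-1.54, adjusted p = 0.0121). Both day 3 groups were dim (3.21 with ascorbic acid, 3.47 without), and its difference was 1.28 at day 2.

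Against day 5 there were 20 genes. The glycolytic genes Pgk1 (-0.68) and Aldoa (-0.64), the HIF target Higd1a (-0.79), Itm2a (-0.69) and the meiotic gene Meioc (-1.37) were among them. In the list of blood and endothelium genes were 4 of the 20, the embryonic globin gene Hbb-bh1 (-3.22), the factor genes Tal1 (-1.71) and Lmo2 (-1.19) and the receptor gene Tek (-1.58). The rest were Myb (-1.41), Nfe2 (-1.26), Rspo3 (-1.74), a Wnt enhancer, the matrix genes Hapln1 (-1.24) and Csgalnact1 (-1.06), Inka1 (-1.26), Vav3 (-1.13), Plxnc1 (-1.16), the monoamine transporter gene Slc18a2 (-1.48), Gpm6b (-1.10) and Ell2 (-1.11). No explanation was tested for these differences.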

How the results depend on the processing

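All 36 called genes kept their sign under every alternative that tested them by gene. Only 1 value reversed, that of another Trim2 probe set (-0.0433). Counts of calls moved much more than signs. The counts follow in the order of genes higher, genes lower, glycolytic enzymes lower, genes with another effect at day 2 and genes with another effect at day 5, which were 17, 19, 5, 1 and 20 in the paired fit. With no replicate block limma called 0, 0, 0, 0 and 1 (145, 124, 7, 476 and 326 at an unadjusted p under 0.05), and with the pair as a random replicate block (correlation 0.347) 2, 4, 1, 0 and 5. Both of these settings used all 21 arrays, with day 0 among them, where the paired fit used 18. With the arrays of day 3 alone, the replicate block gave 77, 58 and 7 and no block gave 3, 2 and 1. A model with no intensity trend gave 9, 9, 1, 2 and 13, and the mean of probe sets 6, 10, 3, 0 and 13. Genes with a mean of at least 6 gave 12 lower genes, 0 with another effect at day 2 and 9 at day 5, and a mean of at least 5 gave 0 at day 2. Renewed quantile normalisation gave 9 at day 2 and a robust variance model 7. All probe sets tested singly gave 4 at day 2 and 46 at day 5. Leaving out each replicate pair in turn gave 2 to 7 genes higher, 4 to 7 lower, 1 glycolytic enzyme, 0 to 3 with another effect at day 2 and 9 to 13 at day 5. Pgk1 and Pttg1 were called in 12 of 13 settings, and 21 of the 36 genes lost the call in each of the fits that left out a replicate.

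With 3 pairs from 1 cell line, small changes can be missed, and an exact unpaired permutation test of 3 against 3 cannot go below p = 0.1. An exact test within 3 pairs has fewer arrangements and a higher floor. Signals of dim genes are not shown to exceed background, and the level of 1 probe set cannot be set against that of another. Whether numbers mark shared cultures is not stated in the labels, so the unpaired counts stand beside the paired ones.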

Other observations

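Signalling and stress lists without a called gene held single genes that stood out, each chosen after its value was seen. None of them was called at day 3 in the paired fit of all days. In the paired fit of the day 3 arrays alone, limma called Msx1 (adjusted p = 0.0264), Tfap2c (0.00389), Foxa1 (0.0298) and Mthfd2 (0.0115) of those named here. Among 19 genes of BMP signalling (median -0.05; limma called 0, with 1 higher and 2 lower at an unadjusted p under 0.05), Msx1, a homeobox target of the pathway, read 8.50, 8.70 and 8.02 with ascorbic acid and 8.97, 9.0 and 8.71 without. All treated arrays lay below all controls (-0.49 ± 0.11, limma adjusted p = 0.103), and at day 5 Msx1 was called lower (-0.68, limma adjusted p = 0.00341). Among 18 Wnt genes (median -0.10; 0 called, 1 higher and 2 lower at an unadjusted p under 0.05), Rspo3, which strengthens Wnt signalling, read -0.54 ± 0.15 (limma adjusted p = 0.326). The lists of 18 Nodal and TGF-beta genes (0 higher, 0 lower; median 0.0050), 15 FGF genes (0 higher, 1 lower; median -0.04) and 16 Notch genes (1 higher, 0 lower; median -0.02) had 0 calls, with these counts at an unadjusted p under 0.05.

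The trophoblast list held Tfap2c, an AP-2 factor also used by germ cell precursors, which read 7.87, 8.47 and 5.53 with ascorbic acid and 8.81, 9.23 and 6.10 without, lower in each pair (-0.76 ± 0.16, limma adjusted p = 0.0729). Foxa1, an endoderm factor gene, read 6.54, 6.64 and 6.26 with ascorbic acid and 7.03, 7.63 and 6.72 without, apart but not called (-0.65 ± 0.21, limma adjusted p = 0.562). Col1a2, a fibrillar collagen chain gene, read 7.67, 7.27 and 7.59 with ascorbic acid and 7.0, 7.04 and 7.24 without, also apart (0.42 ± 0.14, limma adjusted p = 0.65), and it was called higher at day 5 (1.15, limma adjusted p = 0.000406).

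Limma called 0 genes of the amino acid response, p53, heat shock and immediate early lists, and the counts higher and lower given for them are at an unadjusted p under 0.05. Of 22 amino acid response genes driven by ATF4, 15 were above 0 (median 0.10; 3 higher, 1 lower), led by Mthfd2, a mitochondrial folate enzyme gene, at 0.45 ± 0.11 (limma adjusted p = 0.165). Of 18 p53 target genes, 13 were below 0 (median -0.15; 2 higher, 3 lower). Of 16 heat shock genes, 8 were above and 8 below 0 (median -0.0017; 0 higher, 3 lower), and Hspa1b, an inducible chaperone gene, read -0.50 ± 0.13 (limma adjusted p = 0.214) at day 3 and -1.41 at day 2 (limma adjusted p = 2.45e-05). Of 17 immediate early genes, 12 were below 0 (median -0.07; 0 higher, 1 lower).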
